A study of Mus musculus with 8 samples.

Results

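The genes described here are 43 stromal and extracellular matrix genes, chosen by symbol from the 53735 genes listed in count tables of bone marrow derived macrophages (BMDMs), and all 43 were found. The choice was made with earlier results of these data known. BMDMs are macrophages grown from bone marrow, here for 7 days. They came from 6-month-old male mice on a C57BL/6J background that all lacked Apoe and had all been infused with Ang II (angiotensin II) at 1.44 mg/kg/day for 7 days. WT mice were Mkl1+/+, Apoe-/-, and KO mice were Mkl1-/-, Apoe-/-, a global deletion present in every cell type of the mouse and not in macrophages alone. Experiment 1 held WT libraries 1 and 2 and KO libraries 5 and 6, and experiment 2 held WT libraries 3 and 4 and KO libraries 7 and 8, so each of the 4 groups had 2 libraries and each genotype 4. The labels do not say that every library is a separate mouse, so p-values measure only the spread between these libraries. Levels are CPM (read counts scaled to a common library size) with trimmed mean of M values (TMM) factors, and 39 of the 43 genes passed the filter on low counts and were tested.

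Connective tissue is built mainly by mesenchymal cells such as fibroblasts. They secrete collagens as procollagens, which are trimmed, assembled into fibrils and cross-linked outside the cell, and they surround them with proteoglycans, fibronectin and elastic fibres, while sheet-like basement membranes hold collagen IV, laminins and nidogen. Macrophages are known mainly for engulfing and remodelling matrix, and marrow also holds stromal cells that attach to culture plastic. MKL1 is an actin-responsive coactivator of SRF, a transcription factor that binds the CArG box and drives many contractile and matrix genes.

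Promoter sequences are shown for 3 members: Col3a1, with the largest log2 fold change of the KO libraries of experiment 1 against the other 3 groups, Col6a3, with the largest KO minus WT difference in experiment 1, and Igfbp4, with the highest level per kilobase in those libraries. Each is the 250 bases before the RefSeq start in build GRCm38.p6, read 5′ to 3′ on the gene's strand, with a TATAAA match in capitals. Col3a1 (ENSMUSG00000026043.18) spans bases 45311538 to 45349706 of chromosome 1 on the plus strand in GENCODE M21, and its window is chr1:45311288-45311537. Col6a3 (ENSMUSG00000048126.16) spans bases 90765923 to 90843971 of chromosome 1 on the minus strand, and its window is chr1:90843972-90844221. Igfbp4 (ENSMUSG00000017493.12) spans bases 99041244 to 99054392 of chromosome 11 on the plus strand, and its window is chr11:99040994-99041243. All 3 windows lie upstream of the annotated gene.
Col3a1: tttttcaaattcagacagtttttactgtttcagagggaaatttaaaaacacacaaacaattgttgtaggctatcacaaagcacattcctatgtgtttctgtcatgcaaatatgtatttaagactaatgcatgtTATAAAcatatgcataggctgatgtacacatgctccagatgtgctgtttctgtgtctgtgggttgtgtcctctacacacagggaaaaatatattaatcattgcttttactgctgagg
Col6a3: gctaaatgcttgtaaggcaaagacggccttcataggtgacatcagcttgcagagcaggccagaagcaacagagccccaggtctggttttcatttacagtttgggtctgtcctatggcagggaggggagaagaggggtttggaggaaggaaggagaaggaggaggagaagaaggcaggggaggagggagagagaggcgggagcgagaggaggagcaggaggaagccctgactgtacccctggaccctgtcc
Igfbp4: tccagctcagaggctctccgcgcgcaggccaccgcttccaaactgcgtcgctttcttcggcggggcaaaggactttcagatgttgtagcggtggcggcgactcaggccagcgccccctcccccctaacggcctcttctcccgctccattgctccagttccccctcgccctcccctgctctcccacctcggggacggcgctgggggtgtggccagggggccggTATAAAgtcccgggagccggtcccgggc
Windows were at hand for 26 of the 43 members, 29 windows in all. On either strand TATAAA stood in 3 of the 29 (Col3a1, Igfbp4 and Postn) and in 12.4% of 32851 windows of all genes, and CCAAT stood in 8 of the 29 and in 33.8% of all windows. The CArG box, searched as CC, then 6 bases that are each A or T, then GG, was in none of the 29 windows and in 1.47% of all windows. A match is a description of the letters, and its absence says only that these letters were not in this window.

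Between 33977799 and 41584540 counts per library were deposited. No library was a copy of its partner, since a chi-square test of the counts of 2 libraries of the same group gave 8.05 to 50.1 per gene. Mkl1, the deleted gene, measured 25.7, 27.1, 26.9 and 29.7 CPM in WT libraries 1 to 4, 19.3 and 20.7 CPM in KO libraries 5 and 6, and 14.6 and 10.5 CPM in KO libraries 7 and 8. Every KO library was below every WT library, and the difference passed the test in experiment 2 (log2 fold change -1.17 ± 0.15 (SE), adjusted p = 0.00152) and not in experiment 1 (-0.40 ± 0.15, adjusted p = 0.0669). By edgeR's test of the interaction of experiment and genotype, the value of experiment 1 minus that of experiment 2 was 0.77 ± 0.21 (adjusted p = 0.0245). The sources used here do not say which part of the gene is deleted. The 10 macrophage markers were detected in every library, from Lyz2 at 7635 CPM or more to Mertk at 19.8 CPM or more, with a summed level, of which Lyz2 was the largest part in each library, of 23460 and 21120 CPM in KO libraries 5 and 6 and 17160 to 37120 CPM in the other 6.

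Most members were at low levels in 6 libraries and higher in the KO libraries of experiment 1, with Lox, Igfbp4, Lamc1 and Col18a1 at high levels in every library. Their median level, on the log2 CPM scale, was -0.48 and 0.58 in WT libraries 1 and 2, 0.30 and 0.31 in WT libraries 3 and 4, 0.48 and -1.55 in KO libraries 7 and 8, and 4.40 and 4.66 in KO libraries 5 and 6. Of the 39 tested members, 36 rose in the KO of experiment 1 against the mean of the other 3 groups (edgeR quasi-likelihood test, adjusted p under 0.05), where 23.1% of all tested genes rose. Lox alone fell, where 22.5% of all tested genes fell, and Col15a1 and Col18a1 did not pass the test. The median log2 fold change was 4.17 over the tested members and 0.02 over all 15618 genes tested. In 35 of the 39 both KO libraries of experiment 1 stood above each of the other 6, a pattern seen in 22.3% of all tested genes, and in none did both stand below, against 21.3% of all tested genes. Mgp passed the filter on low counts only through the KO libraries of experiment 1 and had to differ. Without it 35 of 38 rose, with a median of 4.10, and 34 of 38 stood above the other 6 libraries. The KO of experiment 1 was singled out with earlier results of these data known. In bulk samples, more cells of a type and more RNA per cell cannot be told apart.

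**Figure D1:**
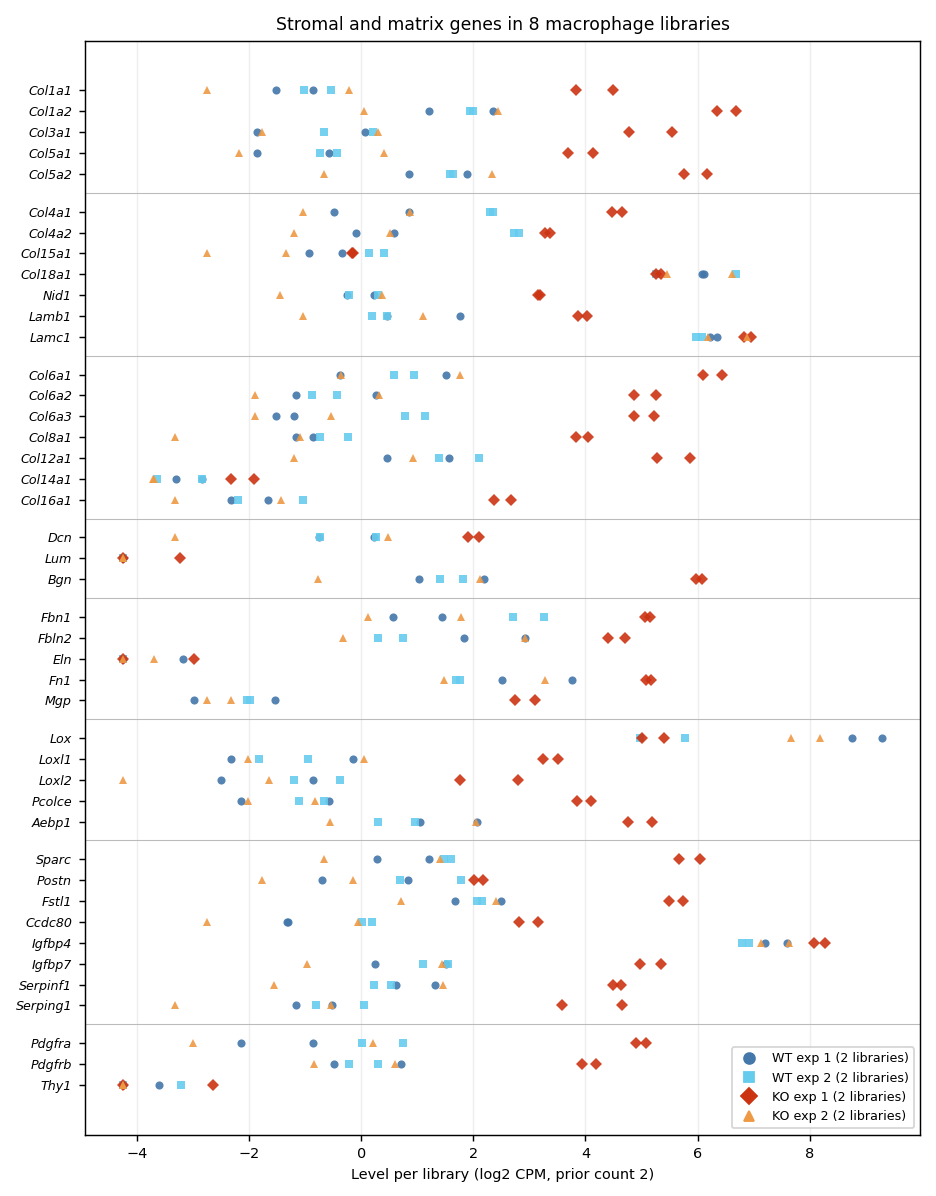
Level of each of the 43 members in each of the 8 libraries, in log2 CPM with a prior count of 2, in rows grouped by role and marked by genotype and experiment. The 2 KO libraries of experiment 1 lie to the right of the other 6 for most members, and Lox, Igfbp4, Lamc1 and Col18a1 are the members at high levels in every library.

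Fibrillar collagens, the rope-forming collagens of types I, III and V, rose without exception among the 5 listed, where 23.1% of all tested genes rose. Their summed level was 189.8 and 261 CPM in KO libraries 5 and 6 and between 2.07 CPM (KO library 8) and 13.6 CPM (KO library 7) in the other 6. Col1a2, a chain of collagen I, measured 2.27, 5.08, 3.96 and 3.78 CPM in WT libraries 1 to 4, 80.9 and 104 CPM in KO libraries 5 and 6, and 5.38 and 0.989 CPM in KO libraries 7 and 8. The KO libraries of experiment 1 did not overlap with the rest, and the log2 fold change was 4.70 ± 0.42 (SE, adjusted p = 0.0002). Col1a1, the other chain of collagen I, was at 14.2 and 22.4 CPM against 0.0965 to 0.806 CPM in the other 6. Col3a1, of collagen III, a partner of collagen I in distensible tissue, was at 27.5 and 46.4 CPM against 0.222 to 1.17 CPM, and its log2 fold change of 5.71 ± 0.45 (adjusted p = 0.000116) topped the 39 tested members. Col5a2, a chain of collagen V, which helps to start and size fibrils, measured 1.75, 3.64, 3.05 and 2.94 CPM in WT libraries 1 to 4, 54.4 and 71.5 CPM in KO libraries 5 and 6, and 4.96 and 0.579 CPM in KO libraries 7 and 8. Again the first KO pair stood apart from the rest (log2 fold change 4.48 ± 0.48, adjusted p = 0.000393). Col5a1 ran between 12.9 and 17.5 CPM in that pair and between 0.169 and 1.27 CPM elsewhere.

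Collagen VI, which forms beaded filaments around cells, collagen VIII and the collagens that decorate fibrils followed the same pattern. All 6 tested members rose, against 23.1% of all tested genes. Col6a1 measured 0.715, 2.79, 1.46 and 1.88 CPM in WT libraries 1 to 4, 68.7 and 86.6 CPM in KO libraries 5 and 6, and 3.35 and 0.723 CPM in KO libraries 7 and 8, with no overlap between the first KO pair and the rest (log2 fold change 5.43 ± 0.44, adjusted p = 0.000136). Per kilobase of merged exons Col6a1 reached 17.7 CPM in that pair, above the other members of this role and the fibrillar collagens, of which Col1a2 came next with 7.42 CPM per kilobase. Col6a3 was at 29.0 and 37.4 CPM in that pair, at 2.14 and 1.67 CPM in WT libraries 3 and 4, and between 0.217 and 0.635 CPM in the remaining 4 libraries. Its log2 fold change was 5.67 ± 0.23. Col12a1, a fibril-associated collagen, measured 1.33, 2.91, 2.56 and 4.24 CPM in WT libraries 1 to 4, 38.7 and 58.2 CPM in KO libraries 5 and 6, and 1.86 and 0.386 CPM in KO libraries 7 and 8, and its log2 fold change was 4.60 ± 0.39 (adjusted p = 0.000159). Col8a1 reached 16.5 CPM and Col16a1 6.36 CPM in KO library 6, and neither exceeded 0.797 CPM outside the first KO pair. Col14a1 held at most 8 counts in any library and was not tested.

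Basement membrane genes were mixed. Of 7 members, 5 rose, where 23.1% of all tested genes rose, and Col15a1 and Col18a1 did not pass the test. Col4a1 and Col4a2, which together make the common collagen IV network, were also higher in WT libraries 3 and 4 than in the remaining libraries. Col4a2 measured 0.888, 1.44, 6.95 and 6.52 CPM in WT libraries 1 to 4, 9.69 and 10.2 CPM in KO libraries 5 and 6, and 1.37 and 0.386 CPM in KO libraries 7 and 8, so the WT libraries of experiment 2 lay just under the first KO pair. Nid1, which links laminin to collagen IV, was at 8.86 and 9.06 CPM in that pair and at most 1.25 CPM elsewhere. Lamb1 and Lamc1 encode a laminin beta and a laminin gamma chain that form trimers together, and their levels differed in kind. Lamb1 was at 14.6 and 16.2 CPM in the first KO pair and at most 3.35 CPM elsewhere, whereas Lamc1 was high in every library, at 81.9, 74.3, 62.9 and 67.8 CPM in WT libraries 1 to 4, 113 and 125 CPM in KO libraries 5 and 6, and 117 and 72.4 CPM in KO libraries 7 and 8. KO library 7 lay between KO libraries 5 and 6 for Lamc1, whose log2 fold change was 0.60 ± 0.16 (adjusted p = 0.016), a call lost without KO library 5 or 6. Col18a1, the source of endostatin, measured 67.2, 69.4, 38.3 and 103 CPM in WT libraries 1 to 4, 38.2 and 40.5 CPM in KO libraries 5 and 6, and 98.2 and 43.9 CPM in KO libraries 7 and 8, with wide overlap of the groups (log2 fold change -0.83 ± 0.40, adjusted p = 0.127). Col15a1 did not exceed 1.27 CPM in any library.

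Small leucine-rich proteoglycans bind collagen fibrils and growth factors. Bgn (biglycan) measured 2.00, 4.52, 2.58 and 3.49 CPM in WT libraries 1 to 4, 62.9 and 67.5 CPM in KO libraries 5 and 6, and 4.30 and 0.531 CPM in KO libraries 7 and 8. The first KO pair was far from the rest (log2 fold change 4.51 ± 0.47, adjusted p = 0.000355). Dcn (decorin) was low throughout, at 0.543, 1.12, 0.55 and 1.15 CPM in WT libraries 1 to 4, 4.23 and 3.69 CPM in KO libraries 5 and 6, and 1.34 and 0.0482 CPM in KO libraries 7 and 8, and its log2 fold change of 2.33 ± 0.64 (adjusted p = 0.0198) lost its call without KO library 5, KO library 6 or WT library 1 and was 3.57 without KO library 7. Lum (lumican), a defining fibroblast proteoglycan in many tissues, held at most 3 counts in every library and was not tested.

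Elastic fibre and fibronectin genes rose in 3 of 3 tested beside Mgp, where 23.1% of all tested genes rose, while Eln, the elastin gene itself, held at most 3 counts in every library. Fn1 (fibronectin) measured 5.65, 13.5, 3.16 and 3.35 CPM in WT libraries 1 to 4, 36.1 and 33.7 CPM in KO libraries 5 and 6, and 9.60 and 2.75 CPM in KO libraries 7 and 8. WT library 2 was the highest of the other 6 and still under the first KO pair (log2 fold change 2.60 ± 0.40, adjusted p = 0.00167). Fbn1 (fibrillin 1), the scaffold on which elastin is laid, measured 1.43, 2.67, 9.56 and 6.46 CPM in WT libraries 1 to 4, 33.6 and 35.7 CPM in KO libraries 5 and 6, and 3.37 and 1.04 CPM in KO libraries 7 and 8, with WT libraries 3 and 4 above the other WT and KO libraries outside the first KO pair (log2 fold change 3.39 ± 0.33, adjusted p = 0.000268). Fbln2 (fibulin 2) was at 21.1 and 26.1 CPM in the first KO pair and between 0.748 and 7.55 CPM elsewhere, and its call was lost without KO library 5 or 6. Mgp, which inhibits calcification, was at 8.49 and 6.66 CPM in that pair and at most 0.294 CPM elsewhere, and is not counted because it had to be higher there.

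Cross-linking and procollagen processing genes held the 1 member that fell. Lox, lysyl oxidase, which cross-links collagen and elastin, measured 629.5 and 430.2 CPM in WT libraries 1 and 2, 54.8 and 31.2 CPM in WT libraries 3 and 4, 32.0 and 42.04 CPM in KO libraries 5 and 6, and 203 and 292 CPM in KO libraries 7 and 8. The first KO pair overlapped with WT libraries 3 and 4 and lay below the remaining 4 libraries (log2 fold change -2.27 ± 0.29, adjusted p = 0.000787). Its relatives Loxl1 and Loxl2 rose in this comparison, with Loxl1 at 9.42 and 11.3 CPM in that pair and at most 0.977 CPM elsewhere, and Loxl2 at 3.32 and 6.93 CPM and at most 0.721 CPM. The log2 fold change of Loxl2, which had no count in KO library 8, moved from 4.17 to 5.95 without KO library 7. Pcolce, an enhancer of procollagen trimming, reached 14.3 and 17.1 CPM against at most 0.617 CPM. Aebp1, a collagen-binding secreted protein, measured 2.02, 4.11, 1.90 and 1.18 CPM in WT libraries 1 to 4, 27.1 and 36.4 CPM in KO libraries 5 and 6, and 4.08 and 0.627 CPM in KO libraries 7 and 8, a clear gap (log2 fold change 3.83 ± 0.47, adjusted p = 0.000664).

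Matricellular and secreted regulators rose in 8 of 8, against 23.1% of all tested genes. Igfbp4, a binding protein that restrains insulin-like growth factors, was high in every library, at 147, 194, 111 and 121 CPM in WT libraries 1 to 4, 308 and 269 CPM in KO libraries 5 and 6, and 198 and 141 CPM in KO libraries 7 and 8. The first KO pair was above the rest by a small factor (log2 fold change 0.95 ± 0.14, adjusted p = 0.00167). Sparc (osteonectin), a collagen-binding matricellular protein, measured 1.16, 2.26, 2.97 and 2.74 CPM in WT libraries 1 to 4, 50.6 and 65.9 CPM in KO libraries 5 and 6, and 2.59 and 0.579 CPM in KO libraries 7 and 8, with a wide gap (log2 fold change 4.88 ± 0.35, adjusted p = 8.54e-05). Igfbp7 was at 31.3 and 40.7 CPM in that pair and at most 2.89 CPM elsewhere, and Fstl1 was at 44.9 and 53.7 CPM and at most 5.55 CPM. Serping1, the C1 inhibitor, differed within the pair, at 11.9 CPM in KO library 5 and 25.1 CPM in KO library 6. Postn (periostin) changed least beside Igfbp4 in this role, at 3.96 and 4.46 CPM against 0.241 to 3.38 CPM (log2 fold change 1.87 ± 0.47, adjusted p = 0.0136), and its call was lost without KO library 5 or 6.

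Among stromal surface proteins, both receptors for platelet-derived growth factor rose, against 23.1% of all tested genes. Pdgfra, a widely used fibroblast marker, measured 0.173, 0.499, 0.962 and 1.62 CPM in WT libraries 1 to 4, 30.0 and 33.7 CPM in KO libraries 5 and 6, and 1.10 and 0.0723 CPM in KO libraries 7 and 8. Only the first KO pair exceeded 1.62 CPM (log2 fold change 5.66 ± 0.46, adjusted p = 0.000136). Pdgfrb, common in pericytes and fibroblasts, measured 0.666, 1.59, 1.18 and 0.808 CPM in WT libraries 1 to 4, 15.4 and 18.1 CPM in KO libraries 5 and 6, and 1.47 and 0.506 CPM in KO libraries 7 and 8, with no overlap (log2 fold change 4.02 ± 0.34, adjusted p = 0.00015). Thy1, another fibroblast surface marker, held at most 4 counts in any library and was not tested.

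**Figure D2:**
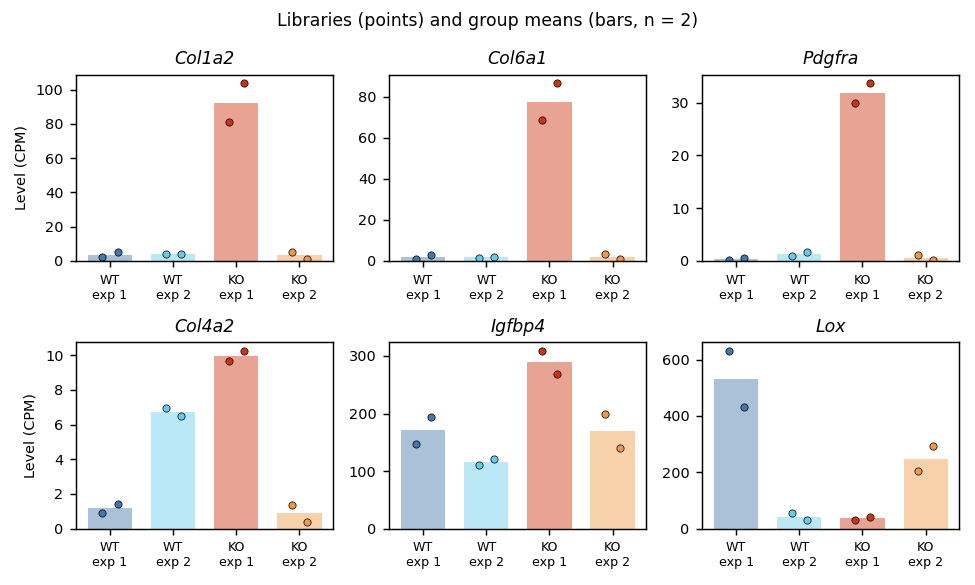
Level in CPM of 6 members by group, with points for the libraries and bars for the mean of 2 libraries. Col1a2, Col6a1 and Pdgfra are high in the KO of experiment 1 alone, Col4a2 is also raised in the WT of experiment 2, Igfbp4 is expressed in all groups, and Lox is highest in WT libraries 1 and 2.

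The study's own question, KO against WT, gave different values in its 2 experiments for most of these genes. The comparisons share libraries, so they are not independent of each other or of the one above. In experiment 1, 33 of the 38 tested members other than Mgp, which had to be higher there, rose in KO, against 20.8% of all tested genes, Lox fell, against 20.5% of all tested genes, and Col15a1, Col18a1, Dcn and Fbln2 did not pass the test. The median log2 fold change of the 38 was 4.26, and the members that rose ran from Lamc1 at 0.61 to Col6a3 at 6.61 ± 0.39 (adjusted p = 8.78e-05). Leaving out each library in turn gave 26 to 36 members higher, of 34 with Mgp included. The calls of Lamb1, Lamc1, Fn1, Loxl2, Aebp1, Postn, Igfbp4 and Serpinf1 were lost without at least 1 library, WT library 1 among them for each of the 8. The Fn1 call was also lost when experiment 1 was fitted alone. Fn1 was at 1.37 without WT library 1 and at 2.63 without WT library 2, and Postn at 1.28 and 2.88.

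In experiment 2, Lox was the 1 tested member that rose in KO, against 15.9% of all tested genes, with a log2 fold change of 2.53 ± 0.32 (adjusted p = 0.0014). Col4a1, Col4a2, Col15a1, Col6a3, Fbn1 and Postn fell, 6 of 39 members where 15.9% of all tested genes fell, so the share was near that of all genes. The largest of these differences was in Col4a2, at -2.94 ± 0.46 (adjusted p = 0.00298), and Col15a1 followed at -2.38, with Postn at -2.17, Col4a1 and Col6a3 at -2.16 and Fbn1 at -1.86. The remaining 32 did not pass the test, Col1a2 at -0.28 ± 0.64, Col6a1 at 0.29 ± 0.72 and Pdgfra at -1.13 ± 0.77 among them, and their standard errors leave differences of that size undecided. Pdgfra was at -0.22 without KO library 8, and at -4.10 and past the test without KO library 7. The median over the members was -0.32. These counts rested on single libraries, since 20 members fell without KO library 7, 3 fell without KO library 5, 6 or 8 or WT library 4, and 5 rose without KO library 8. Col4a1, Fbn1 and Postn were the calls that were lost, also with experiment 2 fitted alone, and Col4a1, Col4a2, Col15a1, Col6a3, Fbn1 and Postn reached -3.52, -4.13, -3.55, -3.13, -2.96 and -3.35 without KO library 7.

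The difference between the experiments was itself tested, as the interaction of experiment and genotype. Leaving out Mgp, it passed for 31 of 38 members, 30 with the larger KO minus WT value in experiment 1, against 19.7% of all tested genes, and Lox with the smaller, against 20.2%. The values ran from 2.66 ± 0.89 for Lamb1 to 8.77 ± 0.54 for Col6a3 among the 30, with -6.37 ± 0.47 for Lox. Aebp1, Col18a1, Dcn, Fbln2, Fn1, Igfbp4 and Lamc1 did not pass. Igfbp4 was at 0.76 ± 0.19 (adjusted p = 0.0145) in experiment 1 and 0.54 ± 0.19 (adjusted p = 0.0598) in experiment 2, with an interaction of 0.21 ± 0.26. Lamc1 was at 0.61 and, without passing the test, at 0.54 (adjusted p = 0.0744), with an interaction of 0.07 ± 0.28. The values of experiment 2 rested on single libraries, since without KO library 7 Igfbp4 was at 0.26 and Lamc1 at 0.13, and without KO library 8 both passed the test, at 0.77 and 0.84. Of the 32 calls with Mgp included, 23 were made in each of the 8 fits that left out a library, and those of Lamb1, Loxl1 and Serpinf1 were lost in 6 of 8. Without KO library 7 the interaction moved to 7.06 for Col5a1, 6.92 for Col5a2, 6.84 for Bgn, 4.20 for Lamb1, 5.71 for Serpinf1, 9.03 for Serping1, 7.86 for Ccdc80, 4.01 for Col15a1 and 11.5 for Loxl2, and without WT library 2 to 5.37 for Loxl1.

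**Figure D3:**
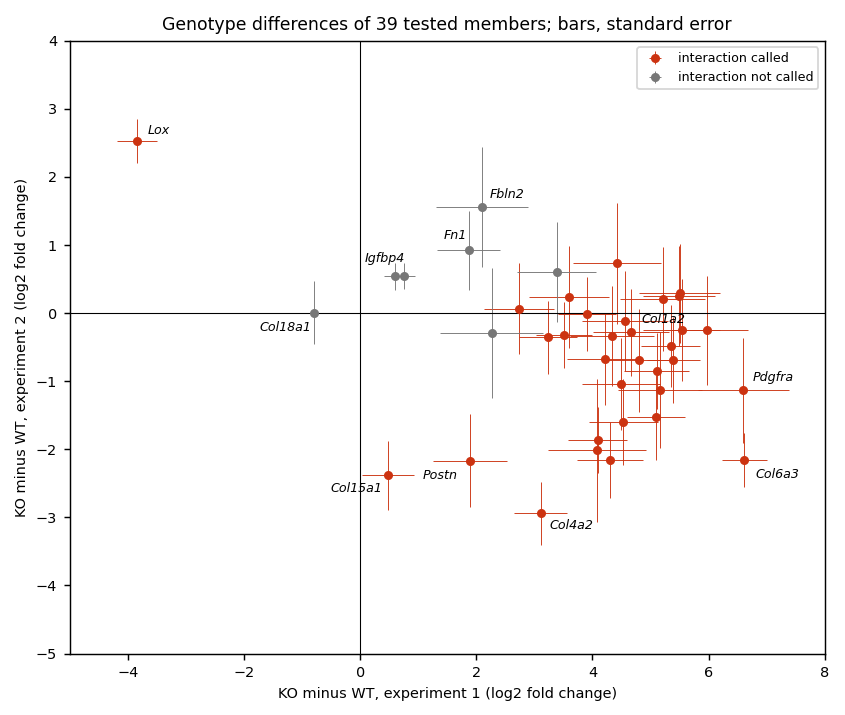
KO minus WT log2 fold change of the 39 tested members in experiment 1 (x axis) and experiment 2 (y axis), with standard errors and coloured by whether the interaction passed the test. Most members lie far right of 0 and near or under 0 on the y axis, Lox lies in the opposite corner, and Igfbp4 and Lamc1 lie close together at small positive values in both.

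Over both experiments, with experiment as a covariate, Igfbp4 was the 1 member called higher in KO (0.65, adjusted p = 0.0474), against 3.59% of all tested genes, and none was called lower by edgeR, against 3.26%. At an unadjusted p under 0.05, 6 members were higher, against 13% of all tested genes, and 0 lower, against 11.9%. DESeq2 called 8 members higher, against 8.05% of all tested genes, and limma-voom called 2, against 4.02%. Neither called a member lower, against 8.32% by DESeq2 and 3.5% by limma-voom. The Igfbp4 call was lost without any 1 library other than KO library 8, and 6 members were called higher without KO library 8. Between the WT groups, Col4a1, Col4a2, Col6a3 and Fbn1 were higher in experiment 2 than in experiment 1, against 14.9% of all tested genes, and Lox was lower, against 14.1%. Col4a2 differed by 2.54 on the log2 scale and its call was lost without WT library 1, which left 1 member higher. Col4a1 and Fbn1 lost their calls in 5 of the 8 fits, among them those without WT library 1 or 3, and Col4a1 moved from 2.05 to 1.49 without WT library 1.

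Within a group, the 2 libraries did not share 1 level of these genes. KO library 7 exceeded KO library 8 in 32 of the 33 members with more than 3 counts in both, by a median of 4.48 times and most for Fbln2, where the median over all tested genes was 0.999. Lox was the exception at 0.696. WT library 2 exceeded WT library 1 in 35 of 38 members, by a median of 2.07 times, and KO library 6 exceeded KO library 5 in 34 of 40, by a median of 1.19 times. WT libraries 3 and 4 had no common direction, with 15 of 39 members higher in WT library 3 and a median ratio of 0.928. Of 41 members above the floor of 3 counts, 31 had their lowest level in KO library 8. Pairs of single libraries allow no test.

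**Figure D4:**
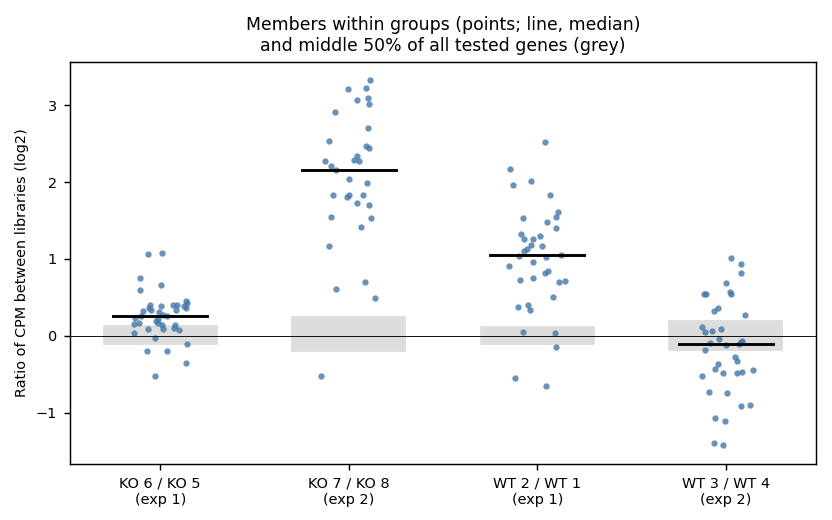
Ratio of CPM between the 2 libraries of each group, on a log2 axis, for members with more than 3 counts in both (points, with the median as a line) and the middle 50% of all tested genes (grey). The members lie well above the grey band in KO 7 over KO 8 and WT 2 over WT 1, with medians of 4.48 and 2.07 as ratios.

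Other genes of the collagen pathway were compared as a list of 20 synthesis enzymes and chaperones, of which 19 were tested. P4ha3 and P3h2 reached the cutoff of the filter on low counts (0.259 CPM) in fewer than 2 of the 6 libraries outside the KO of experiment 1, so they had to be higher there and are left out of the counts. Of the other 17, 7 rose in the KO of experiment 1 against the other 3 groups, where 23.1% of all tested genes rose, and 3 fell, where 22.5% fell, with a median log2 fold change of 0.19. The share that fell was near that of all genes. Serpinh1 (HSP47), the chaperone for procollagen, was at 42.5 and 47.7 CPM in KO libraries 5 and 6 and at most 3.54 CPM elsewhere, and Bmp1 and Adamts2, which trim the 2 ends of procollagen, reached 10.8 and 9.37 CPM in KO library 5 against at most 1.95 and 1.15 CPM in the other 6. The 2 most abundant genes of the list changed little, with P4hb, a subunit of prolyl hydroxylase that also folds other proteins, at -0.23 (not passing the test) and Plod1, a lysyl hydroxylase, at 0.40. Colgalt2, which adds sugar to collagen, fell by 3.82, a fold of limited precision, since it held 1 and 2 counts in KO libraries 5 and 6, under the floor of 3 counts. Of 34 further matrix genes 26 were tested, of which Fbln1, Efemp1, Ogn, Col11a1 and Loxl4 likewise had to be higher. Of the other 21, 17 rose (23.1% of all tested genes) and none fell (22.5%), with a median of 2.31. The most abundant, Tgfbi and Emilin1, rose by 1.31 and 0.45 on the log2 scale. Thbs1 (thrombospondin 1) was at 148 and 190.5 CPM in the first KO pair and 4.67 to 21.9 CPM elsewhere, a gap with no overlap.

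Markers of mesenchymal cell types differed in how far they followed the members. In the lists that follow, genes that reached the cutoff in fewer than 2 of the other 6 libraries had to be higher in the KO of experiment 1 and are named but neither counted nor summed, and 23.1% of all tested genes rose and 22.5% fell. Bone marrow reticular genes rose in 4 of 4 counted, beside Lepr, Ebf3 and Angpt1, with summed levels of 198 and 189 CPM against 34.4 to 64.6 CPM in the other 6, led in abundance by Grem1 and Kitl (3.55 and 0.80 on the log2 scale). Cxcl12, the chemokine that holds blood stem cells in marrow, was at 10.8 and 13.4 CPM against 0.145 to 0.632 CPM. Vcam1, an adhesion molecule and the remaining gene of the 4, passed the test (log2 fold change 1.33, adjusted p = 0.00737) with overlap, since it was at 5.44 and 5.94 CPM in KO libraries 5 and 6 and at 6.24 and 12.8 CPM in WT libraries 3 and 4. Of 9 further mesenchymal genes 4 of 5 counted rose, beside Twist2, and Prrx1 had a log2 fold change of 3.94. In 3 of the 5 (Prrx1, Fap and Tcf4) both KO libraries stood above the other 6, against 22.3% of all tested genes. S100a4 rose by 0.72 with overlap, at 159 and 165 CPM against 161 CPM in WT library 3. Pdpn did not pass the test (-0.14), at 17.8 and 26.4 CPM against 7.40 to 39.1 CPM in the other 6. Tcf21, Meox1 and Meox2 were at or under 3 counts in every library. Of 8 smooth muscle and pericyte genes 3 were counted, Acta2 and Tagln rose and Cspg4 fell, beside Notch3, with summed levels of 19.2 and 23.7 CPM against 3.86 to 12.8 CPM, while Cnn1 was at or under 3 counts. Of the osteoblast genes Runx2 was the 1 counted, beside Sp7 and Alpl, with Bglap, Ibsp and Dmp1 at or under 3 counts. Runx2 passed the test (0.54) but was not highest in KO libraries 5 and 6, at 3.11 and 2.97 CPM against 3.01 and 3.52 CPM in KO libraries 7 and 8, with each WT library lower, and its interaction was -1.23 (adjusted p = 0.0133), opposite in sign to most members. Of the chondrocyte genes Comp was the 1 counted and did not pass the test, at 0.562 and 0.693 CPM against 0.235 to 0.606 CPM, beside Sox9 and Col2a1, with Acan at or under 3 counts. The part of other cell types in the members' levels was not tested.

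Lists outside the mesenchyme did not move together. Of 6 endothelial genes 4 were tested and 1 rose (Vwf), with sums of 163 and 189 CPM against 68.9 to 224 CPM and Tek at or under 3 counts. Of 5 adipocyte genes 2 were tested and 1 fell (Lpl), with sums of 1618 and 1666 CPM against 2331 to 4029 CPM and Adipoq, Plin1 and Cfd at or under 3 counts. Epithelial genes summed to at most 0.271 CPM in any library, with 4 of 5 at or under 3 counts. Neutrophil genes summed to at most 1.41 CPM, with 4 of 6 at or under 3 counts and the 1 tested gene, S100a8, lower. Of the 10 macrophage genes 5 rose, where 23.1% of all tested genes rose, and 2 fell, where 22.5% fell. Those that rose were Mertk by 1.63, C1qa by 1.23, C1qb by 1.11, Csf1r by 0.75 and Cd68 by 0.42 on the log2 scale. For 3 of the 10 (Mertk, C1qa and C1qb) both KO libraries of experiment 1 stood above the other 6, against 22.3% of all tested genes. Adgre1 fell by 1.41 and Itgam by 0.57. Adgre1 (F4/80), a defining macrophage marker, measured 8354, 7111, 2685 and 2730 CPM in WT libraries 1 to 4, 1909 and 1653 CPM in KO libraries 5 and 6, and 4881 and 5293 CPM in KO libraries 7 and 8, so the same 4 libraries were high as for Lox.

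**Figure D5:**
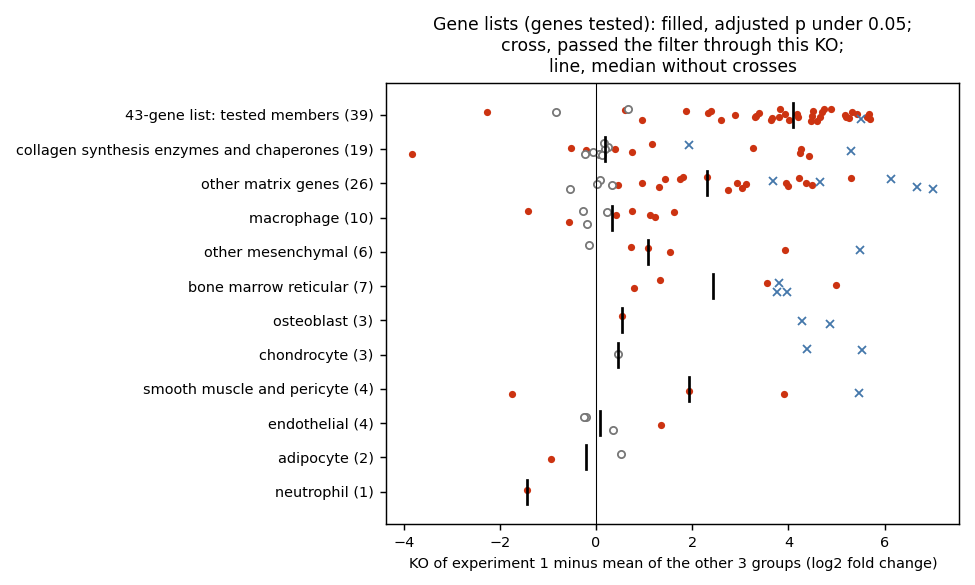
Log2 fold change of the KO of experiment 1 against the mean of the other 3 groups for each tested gene of the 43-gene list and of 11 other lists, filled where the adjusted p was under 0.05, with crosses for genes that passed the filter through that group and had to be higher, and a line at the median of the rest. The medians lie at 4.10 for the 43-gene list, 2.44 for the bone marrow reticular list and 0.33 for the macrophage list.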

How the data were processed

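mRNA of 8 libraries of cultured BMDMs was measured by RNA-seq of stranded libraries (TruSeq Stranded mRNA). Per the submitters' processing notes, the tools named were STAR 2.7.0f, featureCounts of Subread 1.6.4 and DESeq2 1.22.1, with build GRCm38; the annotation is not given in the sources used here. The authors deposited raw counts per gene in 1 table per experiment, which were joined by gene, and normalized counts, which were not used.

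Groups were taken from the labels. Genes with too few counts were removed with filterByExpr over the 4 groups (at least 0.259 CPM in at least 2 libraries), which left 15618 genes. edgeR 4.0.16 in R 4.3.3 (TMM, robust quasi-likelihood fit and F test, 2-sided) was fitted to the 4 groups, with Benjamini-Hochberg adjustment over all tested genes and a threshold of 0.05. The combined comparison used experiment and genotype as terms. Standard errors were obtained from the fold change on the log2 scale and its F statistic, as its absolute value over the root of F. Log2 CPM used a prior count of 2, and the floor was 3 counts. Scripts were tested on simulated data.

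The members and the other lists were chosen with earlier results of these data known. Levels in every library are given for the 2 members of each role with the highest mean CPM over all libraries, for members that went against their role, and for Mkl1, and other members are given by ranges. The rule for other lists named the 2 most abundant genes of each and defining markers at 0, and outside the members the 10 called genes with a mean of at least 1 CPM and the largest log2 fold change, and further genes of these lists were named after their values were seen. Alternatives were DESeq2 1.42.0, limma-voom (limma 3.58.1), upper-quartile scaling, other filters, each experiment alone, no experiment term and leaving out each library. Lengths and positions are from GENCODE M21, and promoter windows from RefSeq (GRCm38.p6).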

Additional observations from a re-analysis of the deposited data

Results flagged for a closer look

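The KO minus WT difference was not the same in both experiments for 32 members, Mgp included, and for 31 of 38 without it, by edgeR's test of the interaction of experiment and genotype (adjusted p under 0.05), which called 19.7% of all tested genes higher and 20.2% lower. The values that follow are the log2 difference of experiment 1 minus that of experiment 2. Fibrillar collagens were at 5.78 for Col1a1, 4.95 for Col1a2, 6.22 for Col3a1, 5.00 for Col5a1 and 4.67 for Col5a2. Basement membrane genes were at 6.47 for Col4a1, 6.04 for Col4a2, 2.86 for Col15a1, 3.59 for Nid1 and 2.66 for Lamb1. Collagen VI, VIII and the fibril-associated collagens were at 5.21 for Col6a1, 5.23 for Col6a2, 8.77 for Col6a3, 6.63 for Col8a1, 6.13 for Col12a1 and 5.49 for Col16a1. Bgn was at 4.67, Fbn1 at 5.95 and Mgp, which passed the filter on low counts only through the KO of experiment 1, at 6.08. Of the cross-linking and processing genes, Loxl1 was at 3.69, Loxl2 at 6.09 and Pcolce at 5.83, and Lox had the opposite sign at -6.37. Secreted regulators were at 5.96 for Sparc, 4.06 for Postn, 3.83 for Fstl1, 5.53 for Ccdc80, 4.89 for Igfbp7, 3.37 for Serpinf1 and 6.29 for Serping1, and the receptors at 7.73 for Pdgfra and 3.93 for Pdgfrb. The calls of Col5a1, Col5a2, Lamb1, Col6a2, Bgn, Loxl1, Loxl2, Postn and Serpinf1 were lost without at least 1 library.

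Col18a1 had 1 KO library far from the other 3, KO library 7 at 98.2 CPM against 38.2 to 43.9 CPM. On the log2 CPM scale the gap to the nearest library was 0.853 of the range of the 4 KO libraries. Chance gives such a gap in about 1 of 20 groups of like libraries when the group is chosen in advance. Col18a1 was flagged because of its gap, and its KO libraries came from different experiments, so that rate does not apply here. Whether the gap exceeds chance was not tested.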

How the results depend on the processing

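The counts of members called higher in the KO of experiment 1 against the other 3 groups, in KO of experiment 1 against WT and in the interaction stayed within 1.5 times under every alternative run, with 32 to 37, 26 to 36 and 24 to 36 when a library was left out, Mgp included. Without a filter beyond 1 count, which tests 28193 genes, 2 members were lower in the first of these, 2 in the second and 2 in the third, 6 were higher and 14 lower in experiment 2, and 9 were higher and 7 lower between the WT groups. With each experiment fitted alone, 2 members were lower in experiment 1 and 3 in experiment 2, and the call of Fn1 in experiment 1 and those of Col4a1, Fbn1 and Postn in experiment 2 were lost. DESeq2 gave 3 higher in experiment 2, 8 higher over both experiments and 2 lower between the WT groups, limma-voom gave 2 higher over both experiments, and leaving out the experiment term gave 0. Leaving out a library gave 1 to 2 lower in the first comparison, 1 to 5 higher and 3 to 20 lower in experiment 2, 0 to 6 higher over both experiments, and 1 to 6 higher and 1 to 4 lower between the WT groups. Directions that turned belonged to differences that had not passed the test. In experiment 2 these ranged from -1.98 to 0.47 for Col1a2, -2.38 to 0.73 for Col5a2, -0.70 to 0.89 for Col18a1, -1.21 to 1.01 for Col6a1 (-0.087 with limma-voom), -2.52 to 0.50 for Bgn, -4.06 to 0.66 for Dcn, -0.26 to 1.56 for Fn1, -1.31 to 1.40 for Aebp1 and -0.99 to 0.55 for Pdgfrb (0.023 with upper-quartile scaling) over the fits without a library, and the interaction ranged from -0.24 to 0.46 for Lamc1 and -0.013 to 0.48 for Igfbp4. The cause of these changes was not tested. Upper-quartile scaling moved the median log2 fold change of all genes to 0.13 in the KO of experiment 1 against the other 3 groups and to 0.13 against WT of experiment 1. No paired analysis was possible because the groups share no replicate numbers. With 2 libraries in a group, a fit without 1 of them assumes that the lone library varies like the other groups. Members under 1 CPM in 6 libraries rest on few reads there, which limits the precision of their folds.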

Other observations

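Outside the 43 members, the 10 genes with a mean of at least 1 CPM and the largest log2 fold changes in the KO of experiment 1 against the other 3 groups were Slco2b1, Sfrp2, Gzme, Ogn, Syt13, Pdk4, Dkk3, Efemp1, Wisp2 and RP23-121N17.2. All 10 passed the filter on low counts only through the KO libraries of experiment 1, since they reached its cutoff in fewer than 2 of the other 6, so they had to be higher there and their levels are given as a description with no test. Sfrp2, Dkk3 and Wisp2 encode secreted proteins tied to Wnt signalling, Ogn and Efemp1 are matrix proteins, Slco2b1 is a membrane transporter, Pdk4 a mitochondrial kinase and Gzme a granzyme. Slco2b1 was at 16.3 and 12.8 CPM in KO libraries 5 and 6 and at most 0.664 CPM elsewhere. Sfrp2 was at 4.10 and 7.75 CPM in that pair and at most 0.0587 CPM elsewhere, and Dkk3 was at 9.29 and 11.1 CPM and at most 0.289 CPM.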
